A study of Mus musculus with 4 samples.

Results

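The 3p strands of the miR-23/27/24 clusters were followed in exosomes that were shed by BV2, a microglial line of the mouse. The members were the 5 names mmu-miR-23a-3p, mmu-miR-27a-3p and mmu-miR-24-3p of the cluster on chromosome 8, and mmu-miR-23b-3p, mmu-miR-27b-3p and again mmu-miR-24-3p of the cluster on chromosome 13. They were chosen by name, and all 5 were found among the 603 miRNA names listed for each library. Small RNA of the exosomes was sequenced in 4 libraries, 2 of control cells and 2 of cells given the heatstroke (HS) treatment, called control 1, control 2, HS 1 and HS 2. The BV2 cells of both groups were labelled wild type, and the labels name no drug. The control treatment was 2 h at 37 °C. The HS treatment was 2 h at 42 °C followed by 12 h back at 37 °C, although the study's results section names a harvest 6 h after heating. BV2 is 1 line, and nothing in the labels says whether the 2 libraries of a group came from separate cultures, so the p-values below measure only the spread between these libraries.

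MicroRNAs are short RNAs that guide Argonaute proteins to messenger RNAs, mainly through the seed, bases 2 to 8 of the mature strand. Each miR-23/27/24 cluster is transcribed as a single primary transcript that holds a miR-23, a miR-27 and a miR-24 hairpin, and the 2 clusters are paralogs with near-identical products. The family is best known from blood, vascular and immune cells. MiR-23a and miR-23b repress glutaminase, and miR-23b also restrains NF-κB signalling. MiR-27a and miR-27b repress Pparg, a nuclear receptor of lipid metabolism, and miR-24 represses the histone variant H2AX in differentiated blood cells.

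The mature sequences show which members can be told apart by their reads. RefSeq (GRCm38.p6) held a mature sequence for 4 of the 5 members, all but miR-23b-3p. Whether reads of miR-23a-3p and miR-23b-3p can be told apart was therefore not checked. The 4 sequences are shown 5′ to 3′ with the seed in capitals.
miR-23a-3p: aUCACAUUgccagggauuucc
miR-27a-3p: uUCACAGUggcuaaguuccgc
miR-27b-3p: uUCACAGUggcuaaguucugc
miR-24-3p: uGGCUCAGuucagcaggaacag
MiR-27a-3p and miR-27b-3p share the seed UCACAGU and the full length of 21 bases except for 1 base, C19U (miR-27a first, counted from the 5′ end). A read that ends before base 19 fits both, and since the authors kept reads from 17 nt upward, the split of miR-27 reads between its paralogs is uncertain. Of the 1679 mature names in the RefSeq table, miR-27a-3p and miR-27b-3p were the only 2 with this seed. MiR-24-3p is the same 22 bases at both loci, chr8:84208875-84208896 (Mir24-2) and chr13:63301251-63301272 (Mir24-1), so its reads cannot be assigned to a cluster. Its seed GGCUCAG occurs in 5 mature names of the table, of which miR-24-3p was the only 1 among the deposited names.

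The deposited files name miRNAs without positions, and the positions given are those of RefSeq on GRCm38.p6. The chromosome 8 cluster lies on the plus strand at chr8:84208518-84208921 and spans 404 bases from the start of the Mir23a hairpin to the end of Mir24-2. In GENCODE M21 the Mir23a and Mir27a hairpins overlapped no other gene, and the 3′ end of Mir24-2 overlapped the exonic start of the lincRNA Gm26532. MiR-23a-3p lies at chr8:84208563-84208583 and miR-27a-3p at chr8:84208727-84208747. The chromosome 13 cluster, chr13:63300484-63301275 on the plus strand, spans 792 bases within the protein-coding gene 2010111I01Rik on the same strand. It also lies within Fancc on the opposite strand, where its hairpins overlap no exon. Mir23b overlaps no annotated exon of 2010111I01Rik. Mir27b and Mir24-1 overlap exons of transcripts of that gene annotated as subject to nonsense-mediated decay. Mir24-1 also overlaps exons of the gene's retained-intron and processed transcripts. MiR-27b-3p lies at chr13:63300760-63300780.

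The values were reads per miRNA divided by 1 size factor per library, here called normalized counts, and whole reads were recovered from them. The reads on the listed names totalled 42091 in HS 1 and 96516 to 121503 in the other libraries. HS 1 listed 228 names above 0 and the others 420 to 444. All 7 myeloid markers were read, although miR-223-3p had at most 5 reads in any library and 0 in HS 2, and miR-142a-3p had 17, 3, 0 and 3. The most abundant were miR-146a-5p and miR-21a-5p, except in HS 1, where miR-21a-5p (114 reads) was under miR-146b-5p (163 reads). The summed myeloid markers ranged from 2843 to 5900 normalized counts in the control group and from 2109 to 3244 in the HS group. Markers of other cell types also moved with HS 1. The 7 endothelial and stromal markers summed to 3300 and 1415 normalized counts in the controls, 21.8 in HS 1 and 928 in HS 2, with 3 of the 7 at 0 in HS 1 (miR-126a-5p, miR-145a-5p and miR-199a-3p). The 5 epithelial markers summed to 379, 181, 2.42 and 114, with 4 of 5 at 0 in HS 1. The 4 red cell, serum and liver markers summed to 76.9 and 192 in the controls and 331 and 186 in the HS libraries, with miR-144-3p at 0 in all libraries but control 1. Of the 3 neuronal markers, 2 were listed, and they summed to 2199 and 3034 in the control group and 3755 and 2120 in the HS group, nearly all from miR-128-3p. The part of these other RNAs in the results below was not tested.

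All 5 members were read in all 4 libraries. MiR-24-3p was the most abundant member, at rank 7 and 8 of the listed names in the controls, 21 in HS 1 and 7 in HS 2. In the control group it was followed by miR-27b-3p at 1567 ± 12.9 normalized counts (mean ± SD, n = 2), miR-27a-3p at 697 ± 98.2, miR-23a-3p at 480 ± 11.6 and miR-23b-3p at 110 ± 48.5. No neighbours in this order overlapped between the controls. In the HS group the order at the top was kept, with 1932 ± 659 for miR-24-3p and 939 ± 1.72 for miR-27b-3p, but miR-27a-3p at 450 ± 144 and miR-23a-3p at 334 ± 335 overlapped and changed places in HS 2. The values carry no length term, and the mature lengths of 21 or 22 bases make them close to a comparison per length. Across clusters the reads assigned to the paralogs were unequal, with miR-23a-3p above miR-23b-3p and miR-27b-3p above miR-27a-3p in every library. The split of miR-27 reads is uncertain, and that of miR-23 reads was not checked. Together the members made up 6.57% and 6.06% of the listed reads of the controls (95% Wilson intervals 6.42% to 6.73% and 5.92% to 6.19%), 2.84% of HS 1 and 6.04% of HS 2 (5.91% to 6.18%). Such intervals hold the error of counting alone and not the spread between libraries. Since PCR copies are counted as if they were separate molecules, the intervals can be too narrow even for that error.

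**Figure D1:**
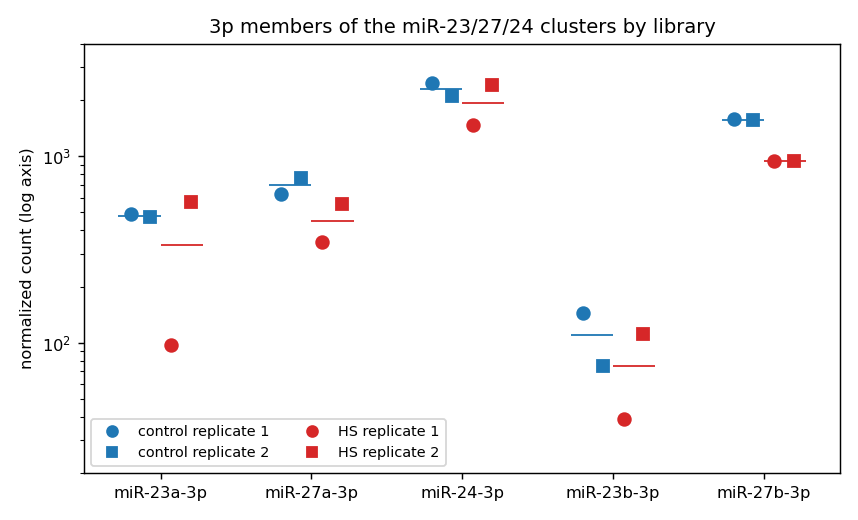
Normalized counts (log axis) of the 5 members in each library, with control replicates in blue, HS replicates in red and short lines for group means (n = 2). The 4 miR-27b-3p points form 2 tight pairs, near 1567 and 939, while miR-23a-3p in HS 1 lies at 96.7, far under the other 3 libraries.

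The first question was whether heat changed the cluster products in exosomes. Limma was fitted to log2(normalized count + 1) of the 376 miRNAs with at least 10 reads in all, and all 5 members passed this filter. On this scale the folds of rarely read miRNAs come out too small. None of the 5 members met the study's criterion, a change over 2-fold together with an unadjusted p under 0.05, against 8.24% of all tested miRNAs (6.65% lower in HS). Of the 78 tested miRNAs with a mean of at least 100 normalized counts, 0 met it, so at that abundance the members did not stand out. The count of members with an unadjusted p under 0.05 was also 0 in limma, in edgeR's quasi-likelihood test and in DESeq2's Wald test. Of all 376 tested miRNAs, 31, 32 and 29 had one, in the same order of tests. The adjusted p-values of the members ran from 0.674 to 0.886 in limma. The log2 fold changes (HS over control) of the members were between -1.02 and -0.29 with a median of -0.66, beside a median of -0.65 over all 376 tested miRNAs and 0.035 over the 78 with a mean of at least 100 normalized counts. All 5 were below 0, as were 65.4% of the tested miRNAs and 47.4% of those 78, to which all members but miR-23b-3p belong. Both HS libraries lay under both controls for 2 members, miR-27a-3p and miR-27b-3p, for 32.4% of the tested miRNAs and for 26.9% of those 78. Without HS 1, 2 of the 5 log2 fold changes were below 0, those of the same miR-27 paralogs, beside 57.2% of all tested miRNAs. Without HS 2, all 5 were below 0, beside 65.4% of all tested, and the log2 fold change of miR-23a-3p was -2.30. In both of these fits the HS group is 1 library that is assumed to vary like the controls. An exact permutation test of 2 libraries against 2 cannot give a two-sided p under 0.333.

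MiR-27b-3p had lower normalized counts in both HS libraries, and by nearly the same amount. It had 1886 and 2299 reads in the controls against 389 in HS 1 and 1414 in HS 2, or 1576 and 1558 normalized counts against 941 and 938. The groups did not overlap, and the HS libraries stood at 60.0% and 59.9% of the control mean. The control mean was 1.67-fold the HS mean, a log2 fold change of -0.74 (SE 0.71, 95% interval -2.65 to 1.18, limma adjusted p = 0.674). With the deposited size factors, leaving out any 1 library kept it between -0.75 and -0.73. Scaling by total listed reads gave -0.84, and upper quartile scaling gave -0.54. HS 2 too was below both controls in the summed stromal and epithelial markers, and their part in the difference was not tested. As a share of the listed reads miR-27b-3p was 1.95% and 1.89% in the controls, 0.924% in HS 1 (95% Wilson interval 0.837% to 1.02%) and 1.24% in HS 2 (1.18% to 1.31%). Both HS libraries were again under the controls, but on this scale they were apart beyond counting error. With the deposited size factors its residual SD of 0.0086 on the log2 scale was the smallest of all 376 tested miRNAs, and it was smaller than the 0.047 that counting error alone would give for these reads. The closeness of the replicates is thus tighter than the reads can resolve and holds for that scaling, not for the shares. Limma widened this spread towards that of the other miRNAs, whereas the two-group test of the methods, which rests on this spread as it is, gave miR-27b-3p an adjusted p = 0.0444 and called 0.798% of the tested miRNAs at that level. Its unadjusted p was under 0.05 for 5.59% of the tested miRNAs, miR-27b-3p the only member among them, and 3.99% met the 2-fold criterion with it, none of them a member. That test was added after the values had been seen, and the fold was under 2 in it as well.

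MiR-27a-3p, the chromosome 8 paralog with the same seed, was also lower in both HS libraries but by unequal amounts. It had 751, 1131, 144 and 832 reads in control 1, control 2, HS 1 and HS 2, or 628, 767, 348 and 552 normalized counts in the same order. The groups did not overlap, and HS 2, at 79.2% of the control mean, was nearer to the controls than HS 1 at 49.9%. The log2 fold change was -0.66 (SE 0.75, 95% interval -2.69 to 1.37, limma adjusted p = 0.729), and -0.33 without HS 1. As a share of the listed reads miR-27a-3p was 0.778% and 0.931% in the controls, 0.342% in HS 1 and 0.730% in HS 2. On this scale the 95% Wilson intervals of HS 2 (0.682% to 0.781%) and control 1 (0.725% to 0.836%) overlapped. Adding the 2 paralogs removes the uncertainty of how reads were split between them. The miR-27 sum was 2204 and 2325 normalized counts in the controls and 1289 and 1490 in the HS libraries, with no overlap. It was 1.63-fold higher in the control group, with a log2 fold change of -0.71 (SE 0.76, limma adjusted p = 0.713) and between -0.81 and -0.60 with any 1 library left out. As a share of the listed reads the sum was 2.73% and 2.82% in the controls, 1.27% in HS 1 and 1.97% in HS 2, and the 95% Wilson intervals of the HS libraries (1.16% to 1.38% and 1.89% to 2.05%) lay under those of both controls (2.63% to 2.84% and 2.73% to 2.92%). The order of the groups was thus the same with and without the size factors. The difference did not exceed the spread that limma estimates between replicates.

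MiR-24-3p, which both loci encode, did not separate the groups. It had 2950 and 3122 reads in the controls and 606 and 3614 in the HS libraries, or 2466, 2116, 1465 and 2398 normalized counts. HS 1 was the lowest and HS 2 lay between the controls. The log2 fold change was -0.29 (SE 0.75, 95% interval -2.32 to 1.75, limma adjusted p = 0.886), and 0.070 without HS 1.

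MiR-23a-3p showed the largest gap between the HS libraries of the 5 members. It had 584 and 696 reads in the controls, 40 in HS 1 and 860 in HS 2, or 488, 472, 96.7 and 571 normalized counts. The controls were close together, HS 1 was 4.88-fold under the next lowest library, and HS 2 was the highest of all 4. The HS libraries were 5.90-fold apart, against a counting error of 15.8% for the 40 reads. The log2 fold change was -1.02 (SE 1.12, 95% interval -4.05 to 2.00, limma adjusted p = 0.719) and rested on HS 1, since it was 0.25 without that library and -2.30 without HS 2. The summed endothelial and stromal markers given above were lowest in the same library, and their part in this difference was not tested. MiR-23b-3p had 172, 111, 16 and 168 reads, or 144, 75.2, 38.7 and 111 normalized counts, and its groups overlapped. HS 1 was again the lowest, and the controls differed by 0.93 on the log2 scale. Its log2 fold change was -0.65 (SE 0.93, limma adjusted p = 0.774), and 0.10 without HS 1. The miR-23 sum was 632 and 547 normalized counts in the controls and 135 and 682 in the HS libraries, with a log2 fold change of -0.95 (SE 1.08, limma adjusted p = 0.736) that became 0.21 without HS 1.

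**Figure D2:**
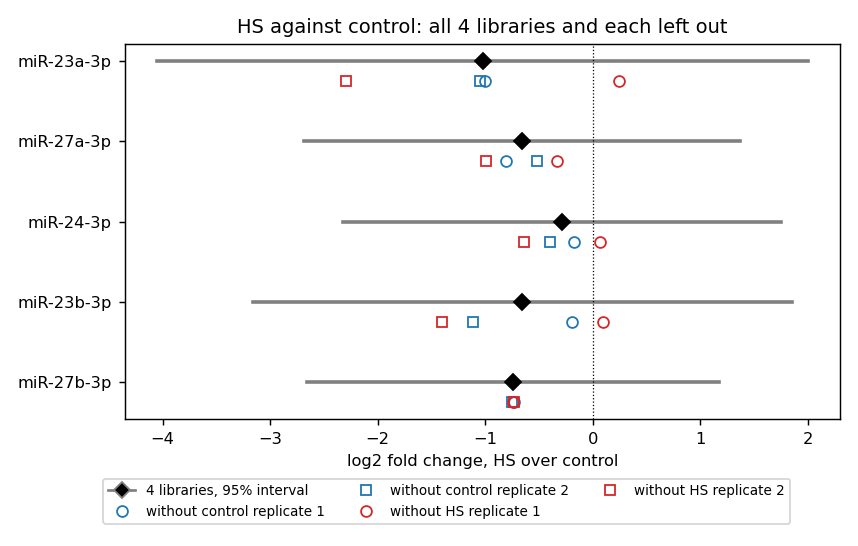
Log2 fold change (HS over control) of each member from limma, with black diamonds and grey 95% intervals for the 4 libraries and open symbols for fits without 1 library. All 5 intervals cross 0, the open symbols of miR-27b-3p fall together between -0.75 and -0.73, and those of miR-23a-3p run from -2.30 to 0.25.

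The members stood in different proportions in HS 1 and HS 2. Against the control mean, HS 1 held 64.0% of miR-24-3p, 60.0% of miR-27b-3p, 49.9% of miR-27a-3p, 35.3% of miR-23b-3p and 20.2% of miR-23a-3p. HS 2 held 104.7% of miR-24-3p, 59.9% of miR-27b-3p, 79.2% of miR-27a-3p, 102% of miR-23b-3p and 119% of miR-23a-3p. In bulk vesicle RNA, less of a miRNA per vesicle and fewer vesicles that carry it cannot be told apart.

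**Figure D3:**
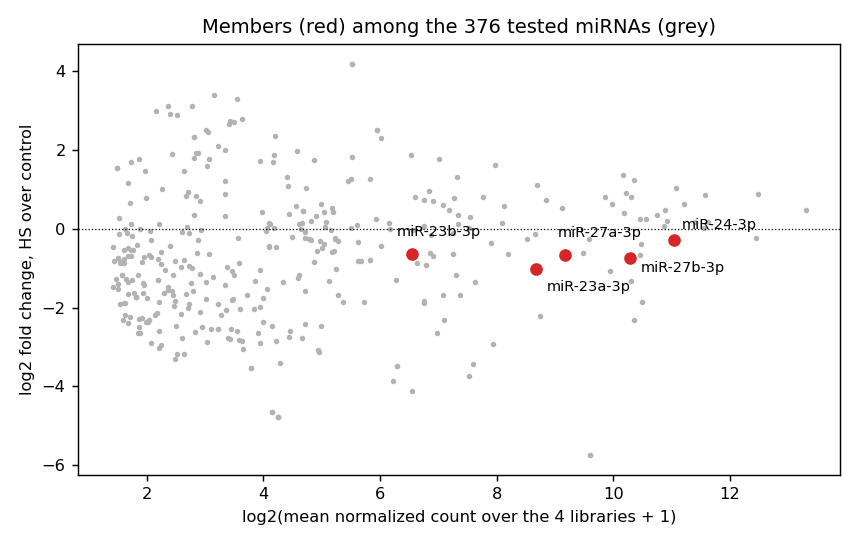
Log2 fold change (HS over control) against log2 of the mean normalized count + 1 for the 376 tested miRNAs in grey, with the 5 members in red. The members lie between -1.02 and -0.29, inside the cloud of miRNAs of similar abundance.

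Ratios between members of 1 library show whether products of a cluster kept their proportions. They were taken on normalized counts with a pseudocount of 1, so they depend little on the size factor where both names have many reads, and strongly where 1 of them is at or near 0. The shares of reads do not depend on it. Of 10 such ratios compared between the groups, 1 did not overlap and reached the smallest possible exact two-sided permutation p of 0.333 (miR-23a-3p over miR-23a-5p), and all 10 Benjamini-Hochberg adjusted values were 1. MiR-23a-5p had 0 reads in HS 1, so that value is set by the pseudocount. The group difference of this ratio was 1.34 with a pseudocount of 1, 2.98 with 0.1, and 0.30 with 5, where the groups overlapped (exact permutation p = 0.667). On chromosome 8, miR-23a-3p made up 43.7% and 38.1% of the reads of miR-23a-3p and miR-27a-3p in the controls, 21.7% in HS 1 (95% Wilson interval 16.4% to 28.2%) and 50.8% in HS 2 (48.4% to 53.2%). The HS libraries thus lay on opposite sides of the controls beyond counting error. On chromosome 13, miR-23b-3p made up 8.36%, 4.61%, 3.95% and 10.6% of the reads of miR-23b-3p and miR-27b-3p in the same order. Here too the HS libraries were the lowest and the highest, although the interval of HS 1 (2.45% to 6.32%) held the value of control 2.

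MiR-24-3p against miR-27b-3p gave a different order. MiR-24-3p made up 61.0% and 57.6% of the reads of this pair in the controls, 60.9% in HS 1 (57.8% to 63.9%) and 71.9% in HS 2 (70.6% to 73.1%). MiR-27b-3p was hence low relative to miR-24-3p in HS 2 alone, although its normalized count was equally low in both HS libraries. Against miR-23a-3p, miR-24-3p made up 83.5% and 81.8% of the reads of the pair in the controls, 93.8% in HS 1 and 80.8% in HS 2. On the log2 scale the group means of this ratio differed by 0.74 (exact permutation p = 1), and by -0.18 without HS 1.

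The paralog shares, taken from the reads as assigned to each name, overlapped between the groups. MiR-27a-3p made up 28.5% and 33.0% of the miR-27 reads in the controls (95% Wilson intervals 26.8% to 30.2% and 31.4% to 34.6%) and between 23.4% and 30.9% in HS 1 by the same interval, beside 37.0% in HS 2 (35.1% to 39.1%). The mean log2 ratio differed by 0.077 between the groups (exact permutation p = 1), less than the gap between the controls. MiR-23a-3p made up 77.2% and 86.2% of the miR-23 reads in the controls, 71.4% in HS 1 (58.5% to 81.6%) and 83.7% in HS 2. Its mean log2 ratio to miR-23b-3p differed by -0.37 (exact permutation p = 0.667), and the groups overlapped.

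**Figure D4:**
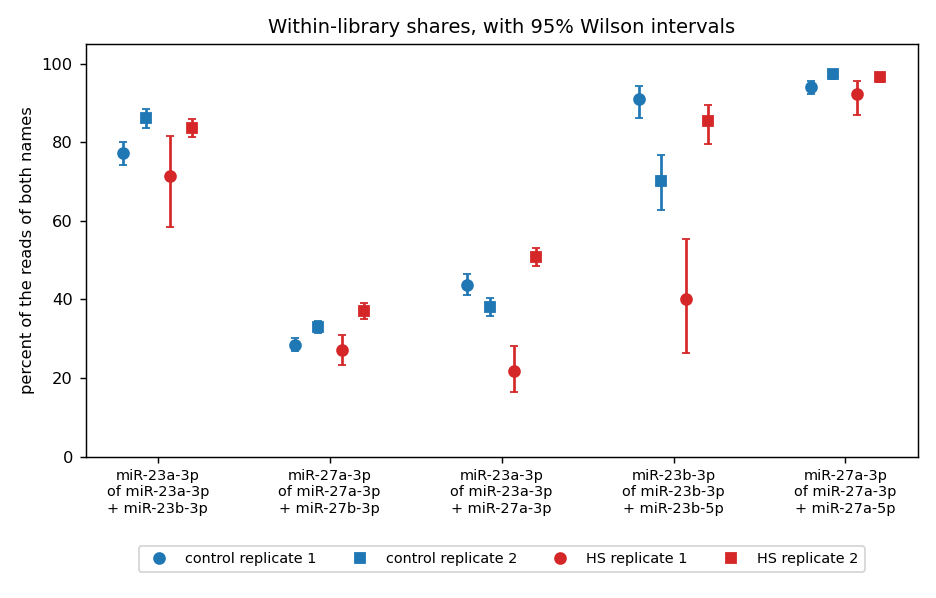
Share of the first name in the reads of each pair of names, in percent, for each library with 95% Wilson intervals (control blue, HS red). In the pair of miR-23a-3p and miR-27a-3p the HS libraries lie at 21.7% and 50.8%, on either side of the controls, and miR-23b-3p reaches only 40.0% of its hairpin's reads in HS 1.

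The opposite strands of the same hairpins had fewer reads than the 3p strands in every library, except for miR-23b-5p in HS 1. Of 9 names looked for, the 5p strands and the miR-3074 names transcribed antisense to miR-24, 7 were in the files and all 7 were tested. Both miR-24 5p sequences are given since, unlike miR-24-3p, they differ between the loci, and those of miR-23 since its strands varied most. The seed is in capitals.
miR-24-1-5p: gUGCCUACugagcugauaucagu
miR-24-2-5p: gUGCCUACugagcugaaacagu
miR-23a-5p: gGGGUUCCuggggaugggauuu
miR-23b-5p: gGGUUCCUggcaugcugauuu
Of the 7, 0 met the study's criterion, and their unadjusted p-values began at 0.207 in limma. None had an unadjusted p under 0.05 in edgeR's quasi-likelihood test or DESeq2's Wald test, beside 32 and 29 of all 376 tested miRNAs. The log2 fold changes of the 7 had a median of -0.83, beside -0.65 over all 376 tested miRNAs. Of the 7, 5 were below 0, as were 65.4% of all tested miRNAs, and 8.24% of all tested met the criterion. Without HS 2 the criterion was met by 3 of them (miR-23a-5p, miR-27b-5p and miR-24-2-5p), beside 113 of all 376 tested miRNAs, and without HS 1 by 1 (miR-3074-5p), beside 34. These fits hold 1 HS library, which is assumed to vary like the controls. MiR-27b-5p had 3, 5, 0 and 3 reads, and its 0 in HS 1 allows more normalized counts than either control had, so its call shows no fall.

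MiR-24-2-5p of chromosome 8 had 45, 49, 5 and 46 reads in control 1, control 2, HS 1 and HS 2. MiR-24-1-5p of chromosome 13 had 10, 3, 0 and 12 reads in the same order. The chromosome 8 strand had more reads in every library, and in HS 1 it was the only 1 of the pair read. MiR-3074-5p, which lies opposite miR-24-3p on the minus strand of both loci, had 0 reads in both controls and HS 1 and 14 in HS 2. A count of 0 still allows up to 3 reads, or 7.25 normalized counts in HS 1 and 2.51 and 2.03 in the controls.

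The 3p strand dominated most hairpins. It gave at least 99.78% of the miR-27b reads of each library, 92.3% to 97.2% of those of miR-27a and 95.3% to 97.1% of those of miR-23a in 3 libraries, with 40 of 40 in HS 1. MiR-23b was less even. Its 3p strand gave 91.0% of the hairpin's reads in control 1 (95% Wilson interval 86.1% to 94.3%), 70.3% in control 2 (62.7% to 76.8%), 40.0% in HS 1 (26.3% to 55.4%) and 85.3% in HS 2 (79.7% to 89.6%). HS 1 was the only library with more miR-23b-5p than miR-23b-3p, at 24 against 16 reads. The mean log2 ratio of the strands differed by -1.28 between the groups (exact permutation p = 0.667), and by 0.24 without HS 1. MiR-23b-5p itself had 17, 47, 24 and 29 reads, or 14.2, 31.9, 58.0 and 19.2 normalized counts, and its groups overlapped.

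No member had another member as its closest match across the 4 libraries. Likeness was measured as the root mean square difference of centred log2(normalized count + 1) over the 4 libraries, as a description, between each member and 78 other miRNAs (the other members and names with a mean of at least 100). MiR-27b-3p had miR-27a-3p, of the other cluster, at rank 2 of 78 with a difference of 0.26. Its cluster partners miR-24-3p and miR-23b-3p were at ranks 7 and 31. MiR-27a-3p had its partner miR-24-3p at rank 6 and miR-27b-3p at rank 7, but its other partner miR-23a-3p at rank 38. MiR-23a-3p had miR-23b-3p at rank 8 and its partners miR-27a-3p and miR-24-3p at ranks 16 and 20. From miR-24-3p, miR-27a-3p was at rank 8, miR-27b-3p at 16, miR-23b-3p at 23 and miR-23a-3p at 43. From miR-23b-3p, miR-24-3p was at rank 10, miR-23a-3p at 13, miR-27a-3p at 14 and miR-27b-3p at 19.

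The closest non-members differed from member to member. They were let-7i-5p (difference 0.15) and let-7a-5p (0.29) for miR-27b-3p, and miR-142a-5p (0.14) and let-7d-5p (0.16) for miR-27a-3p. For miR-24-3p they were miR-140-3p (0.13) and miR-221-3p (0.16). MiR-23a-3p was nearest to miR-30c-5p (0.34) and miR-26b-5p (0.36), and miR-23b-3p to let-7g-5p (0.24) and miR-148b-3p (0.27). MiR-30c-5p, the name nearest to miR-23a-3p, had 339 and 325 normalized counts in the controls, 116 in HS 1 and 394 in HS 2, and so shared the low HS 1 and the high HS 2. Let-7i-5p, the name nearest to miR-27b-3p, had 1980 and 1495 in the controls and 1115 and 1033 in the HS libraries.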

How the data were processed

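Exosomal small RNA from BV2 cells was sequenced in 2 control and 2 HS libraries. The authors removed adapters, reads under 17 nt and low-quality reads, mapped the rest with bowtie and counted miRNAs. Versions and the build are not given in the sources used here. The deposited signal values are headed RPKM. Divided by the smallest value of their file, however, 100% gave whole numbers (tolerance 1e-04 reads), so they are read counts divided by a size factor (1.20, 1.48, 0.414 and 1.51 for control 1, control 2, HS 1 and HS 2).

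The comparison of the groups used limma 3.58.1 under R 4.3.3 (no trend, no replicate term, Benjamini-Hochberg over all tested miRNAs), with edgeR 4.0.16 and DESeq2 1.42.0 on recovered reads as alternatives. Paralog sums replaced their rows before the same fit. Within-library ratios used log2 of normalized counts with a pseudocount of 1 and an exact permutation test. Named miRNAs were the members, the opposite strands, names sharing a seed, the 2 closest non-members of each member, and the marker lists. The members and lists were chosen with earlier results of these data known. Deviations of same-numbered libraries from their group means correlated at -0.10 over 376 miRNAs, and the labels do not tie the numbers to a shared culture. Python 3.11.15 made the tables.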

Additional observations from a re-analysis of the deposited data

How the results depend on the processing

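The log2 fold changes of all 5 members stayed below 0 under 12 alternatives that kept the 4 libraries, of which 5 (no filter, filterByExpr, trend, two-group test, block) cannot move them. MiR-23a-3p was at -0.32 in edgeR and -0.52 in DESeq2 against -1.02. Over the single-library omissions they ran from -2.30 to 0.25 for miR-23a-3p, -0.64 to 0.070 for miR-24-3p, -1.40 to 0.10 for miR-23b-3p, -0.99 to -0.33 for miR-27a-3p and -0.75 to -0.73 for miR-27b-3p, and from -2.11 to 0.21 for the miR-23 sum. Upper quartile scaling moved the median of all tested miRNAs by 0.18 and gave -0.54 for miR-27b-3p and -0.084 for miR-24-3p. The two-group test of the methods, chosen after the data were seen, left miR-27b-3p at -0.74 but took it past the threshold, as 1 of 3 miRNAs with an adjusted p under 0.05, where limma gave 0 (31 at an unadjusted p under 0.05). The number of miRNAs meeting the study's criterion was 31 (6 higher, 25 lower), 16 with a pseudocount of 5, 12 with filterByExpr, 15 with the two-group test and 26 to 113 without 1 library. With TMM scaling it was 9 higher and 21 lower. Members meeting it numbered 0 to 1 without 1 library, and opposite strands 0 to 3. With the replicate number as a block (replicate block) 19 miRNAs met it, and no call of a member changed.

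Without 1 library the log2 fold changes ran from -0.14 to 1.40 for miR-23b-5p, -0.71 to 0.12 for miR-27a-5p, -2.41 to 0.75 for miR-24-1-5p and 0 to 3.36 for miR-3074-5p. The group differences of log2 ratios ran from -0.89 to 0.15 for miR-23a-3p over miR-23b-3p, -0.26 to 0.41 for miR-27a-3p over miR-27b-3p, -1.31 to 0.58 for miR-23a-3p over miR-27a-3p, -0.67 to 0.84 for miR-23b-3p over miR-27b-3p and -0.18 to 1.66 for miR-24-3p over miR-23a-3p. The 3p over 5p ratios ran from -2.81 to 0.24 for miR-23b, -0.98 to 0.25 for miR-27a and -0.35 to 1.24 for miR-27b, which was -0.31 with a pseudocount of 5. The causes were not tested. The 40 and 16 reads of miR-23a-3p and miR-23b-3p in HS 1 limit their precision, and 2 libraries a group leave wide intervals. All 10 closest non-members were kept with scaling by total listed reads.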
